A study of Mus musculus with 6 samples.

Results

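Oxidative phosphorylation subunits were taken as the protein-coding genes whose symbols begin with Ndufa, Ndufb, Ndufc, Ndufs or Ndufv and a number, with Uqcr, Cox4 to Cox8 or Atp5, together with Sdha, Sdhb, Sdhc and Sdhd. The rule gave 84 of the 41126 genes in the table, of which 37 belong by name to complex I, 4 to complex II, 8 to complex III, 18 to complex IV and 17 to complex V. No measured value entered the rule, although the members were chosen with earlier results of these data known. The grouping follows the symbols alone, so Ndufa4 and its paralog Ndufa4l2 stand with complex I although the Ndufa4 protein is now placed in cytochrome c oxidase. Cox7a2l, a factor of supercomplex assembly, stands with complex IV, and Cyc1 and Ndufab1, whose symbols do not match, were not members.

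The respiratory chain passes electrons from NADH through complex I, or from succinate through complex II, to ubiquinone, complex III, cytochrome c and complex IV, where oxygen is reduced. The protons pumped on the way drive ATP synthase, complex V. Most subunits are encoded in the nucleus and made in every cell, but some complex IV subunits exist as pairs of paralogs, of which one is widespread and the other restricted to tissues such as heart, skeletal muscle, lung, brown fat or testis.

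RNA-seq had been performed on cultured dermal fibroblasts from the ventral skin of postnatal day 4 mice on a CD1 and C57Bl6 background, with 3 libraries per group. GOF cultures received Adenovirus-Cre, which removes exon 3 of Ctnnb1 and leaves a stabilized β-catenin (genotype Ctnnb1Δex3/+). Control cultures received Adenovirus-GFP, so both groups were infected. An effect of Cre, of GFP or of a difference in virus dose cannot be told apart from that of β-catenin. The labels call the controls +/+, the paper gives them the transgene too. The labels' protocol gives 366 to 500 MOI of Adenovirus-Cre for 6 h to every culture. The paper instead gives 366 to 500 MOI for Adenovirus-Cre and 366 MOI for Adenovirus-GFP, so the dose may differ between groups. By the paper, RNA was taken some days after infection. The 6 cultures came from 4 animals. A single animal gave both Control replicate 0 and GOF replicate 2, another gave Control replicate 2 and GOF replicate 0, and the remaining cultures had an animal each. The cultures were not sorted, the virus carries Cre into whichever cells it infects, and in such bulk samples fewer cells of a type and less RNA per cell cannot be told apart.

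The libraries held 35980831 to 42834467 fragments. The fibroblast genes Vim (719 to 1506 FPKM, fragments scaled by transcript length and library size) and Dcn (251 to 1175 FPKM) were abundant in every library. The keratinocyte genes Krt5 and Krt14 were at most 0.0700 and 0.0235 FPKM. Over a list of 10 keratinocyte markers the sum was 0.594 to 0.900 FPKM in Control and 3.09 to 7.15 FPKM in GOF libraries, and 1 of them, Dsp, was called higher. Axin2, a direct β-catenin target, had 0.136 to 0.177 FPKM in Control and 14.4 to 19.2 FPKM in GOF libraries. Ctnnb1 itself, read over the whole gene, had 254 to 285 FPKM in Control and 246 to 296 FPKM in GOF libraries, which does not read the excision.

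Of the 84 subunits, 81 passed a filter on low counts and were tested, and 77 of these did not pass the threshold. Ndufb3 and Cox6b2 were higher in GOF cultures and Ndufa4l2 and Cox6a2 were lower, at an adjusted p under 0.05 from edgeR's quasi-likelihood test. These 4 are 4.94% of the subunits tested. Over all 15462 genes tested, 21.2% were called, 11.1% higher and 10.2% lower. A fold change over 2 as well was reached by 3 subunits, Cox6b2, Ndufa4l2 and Cox6a2, and by 12.3% of all genes. The median log2 fold change (GOF minus Control, positive where GOF was higher) was 0.06 over the 81 subunits and -0.02 over all genes. Fitted values lay within 0.5 of 0 on the log2 scale for 73 subunits (90.1%) and for 64.7% of all genes, and the 95% interval stayed inside a 2-fold change either way for 72 subunits. The median standard error was 0.19 for the subunits and 0.20 for all genes. Every GOF library lay above every Control library in FPKM for 3 subunits and below for 4, or 8.64% of those tested, against 39.5% of all genes tested.

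With the animal as a block in the model, 3 subunits were higher and 4 lower, where all genes tested gave 21.4% called. Ndufb6 joined the higher group, and Cox4i2 and Atp5g2 joined the lower group. That fit has 1 residual degree of freedom per gene before edgeR pools the spread across genes, and only the 2 animals that gave a culture to each group inform it.

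**Figure D1:**
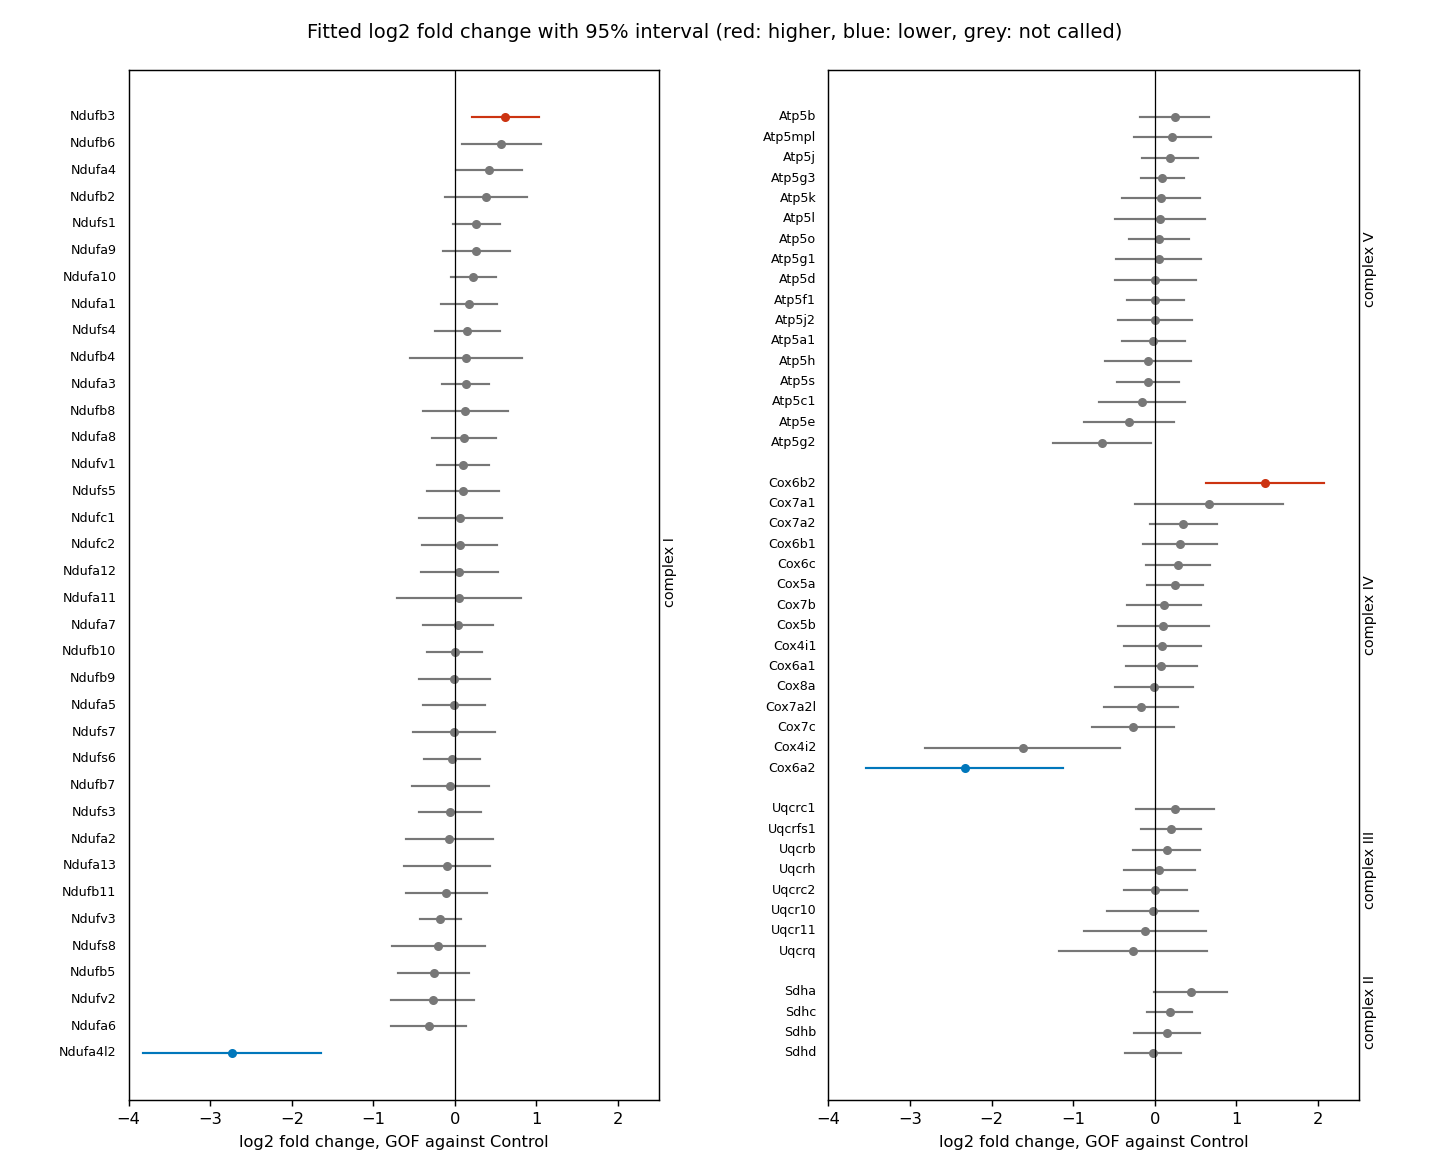
Fitted log2 fold change, GOF against Control (x axis), for 80 of the 81 tested subunits, grouped by complex and ordered by size, with bars for the 95% interval. The 4 called subunits are coloured, and 71 of the intervals drawn lie between -1 and 1.

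The fall of Ndufa4l2 was the largest change among the subunits. The gene, on chromosome 10 from 127514967 to 127517154 (GRCm38, GENCODE M21), encodes a paralog of Ndufa4 that is known as a target of the hypoxia factor HIF-1. Its level was 24.6, 27.2 and 13.5 FPKM in Control replicates 0, 1 and 2, and 1.72, 5.95 and 2.82 FPKM in GOF replicates 0, 1 and 2. Every GOF library lay below every Control library. The log2 fold change was -2.73 (standard error 0.47, 95% interval -3.82 to -1.64, adjusted p = 0.0067 from edgeR), a 6.65-fold lower level, and it was between -3.27 and -2.39 over all alternatives. Within the animal of Control replicate 0, GOF minus Control was -3.11 on the log2 scale, and within that of Control replicate 2 it was -2.93. The span shares 32 bases with Shmt2 on the other strand. Shmt2 had 21.2 to 25.6 FPKM in Control and 16.6 to 19.8 FPKM in GOF libraries (log2 fold change -0.42, adjusted p = 0.101 from edgeR).

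Cox6a2, the subunit VIa paralog of heart and skeletal muscle, lies on chromosome 7 from 128205435 to 128206387. Its FPKM was 4.37, 3.01 and 3.05 in Control replicates 0, 1 and 2 and 0.591, 0.274 and 1.21 in GOF replicates 0, 1 and 2, with no overlap. The counts behind these values were 61 to 80 fragments per Control library and 5 to 26 per GOF library. The log2 fold change was -2.33 (standard error 0.52, 95% interval -3.54 to -1.12, adjusted p = 0.0184 from edgeR). Without GOF replicate 0 it was -2.21 with an adjusted p of 0.0833 from edgeR. The whole span of Cox6a2 lies within Itgad on the other strand, which was listed at no more than 0.0484 FPKM in any library.

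Cox4i2, the paralog of subunit IV known from lung and from oxygen sensing, lies on chromosome 2 from 152754173 to 152765037. It was read at 1.50, 1.19 and 0.616 FPKM in Control replicates 0, 1 and 2 and at 0.192, 0.568 and 0.363 FPKM in GOF replicates 0, 1 and 2. The groups did not overlap, although only 5 to 35 fragments per library stand behind the values. Its log2 fold change of -1.62 (standard error 0.52, 95% interval -2.82 to -0.42) missed the threshold in the unblocked fit (adjusted p = 0.0623 from edgeR). It passed with the animal as a block (-1.88, adjusted p = 0.0317 from edgeR), with DESeq2 (adjusted p = 0.0479) and without Control replicate 2 (adjusted p = 0.0472 from edgeR).

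Cox6b2, the testis paralog of subunit VIb, was the only complex IV gene called higher in the unblocked fit of all 6 libraries. It lies on chromosome 7 from 4751792 to 4753094. Its FPKM was 2.23, 2.87 and 1.91 in Control replicates 0, 1 and 2 and 8.55, 5.95 and 5.31 in GOF replicates 0, 1 and 2. All GOF libraries lay above all Control libraries. The log2 fold change was 1.35 (standard error 0.31, 95% interval 0.63 to 2.07, adjusted p = 0.0203 from edgeR), from 30 to 49 fragments per Control library and 80 to 130 per GOF library. Leaving out Control replicate 2 or GOF replicate 0 gave 1.23 and 1.11, with adjusted p-values of 0.0748 and 0.0789 from edgeR. Within the 2 animals that gave both cultures it was higher by 1.22 and by 2.02 on the log2 scale.

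Ndufb3, an accessory subunit of the complex I membrane arm, was the only widely expressed subunit past the threshold in the unblocked fit. It lies on chromosome 1 from 58586384 to 58595964, and its FPKM was 58.6, 44.5 and 42.7 in Control replicates 0, 1 and 2 and 64.9, 76.9 and 84.5 in GOF replicates 0, 1 and 2. The groups did not overlap, with Control replicate 0 closest to the GOF libraries. The log2 fold change was 0.62 (standard error 0.18, 95% interval 0.21 to 1.03, adjusted p = 0.0435 from edgeR). The call was lost when any library other than Control replicate 0 was left out, where the log2 fold change was 0.52 to 0.73 and the adjusted p 0.0592 to 0.152 from edgeR. It was also lost with upper-quartile scaling (0.56, adjusted p = 0.0567 from edgeR).

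Ndufb6 and Atp5g2 also had groups that did not overlap, on opposite sides. Ndufb6, another accessory subunit of the membrane arm, had 127, 89.0 and 82.5 FPKM in Control replicates 0, 1 and 2 and 136, 133 and 180.5 FPKM in GOF replicates 0, 1 and 2. Its log2 fold change was 0.57 (adjusted p = 0.0957 from edgeR) without a block and 0.58 (adjusted p = 0.0281 from edgeR) with the animal as a block. Its span shares 350 bases on the other strand with Smim27, which fell from 4.64 to 5.97 FPKM in Control to 2.35 to 3.24 FPKM in GOF libraries (adjusted p = 0.0228 from edgeR). Atp5g2, one of 3 genes that encode the same mature subunit c of the ATP synthase ring, had 304, 179 and 180.0 FPKM in Control replicates 0, 1 and 2 and 129, 145 and 168 FPKM in GOF replicates 0, 1 and 2. Its log2 fold change was -0.64 (adjusted p = 0.121 from edgeR) without a block and -0.67 (adjusted p = 0.0257 from edgeR) with it. In the unblocked fit without Control replicate 0, its highest library, it was -0.30 (adjusted p = 0.193 from edgeR).

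**Figure D2:**
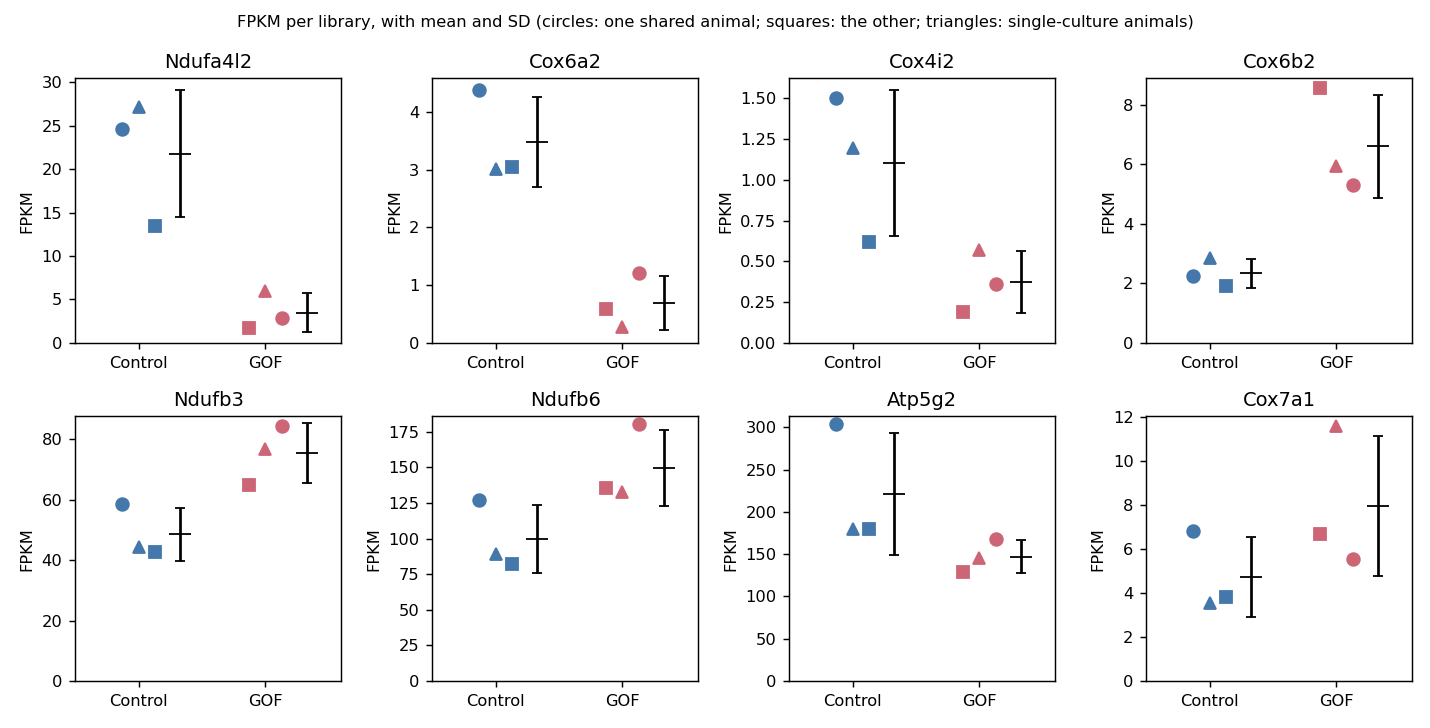
FPKM (y axis, from 0) of 8 subunits in each library of the Control and GOF groups (x axis), with the mean and SD of 3 libraries beside the points and the marker shape giving the animal. The panels hold every tested subunit whose groups do not overlap (8.64% of subunits, against 39.5% of all genes tested), together with Cox7a1. By that choice, Control and GOF points are apart for all but Cox7a1. Its values are 3.54 to 6.81 FPKM in Control and 5.57 to 11.6 FPKM in GOF libraries.

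Among the tissue-restricted paralogs, Cox7a1 of heart, muscle and brown fat was at 6.81, 3.54 and 3.83 FPKM in Control replicates 0, 1 and 2 and at 6.71, 11.6 and 5.57 FPKM in GOF replicates 0, 1 and 2. The groups overlapped and the log2 fold change of 0.67 had a 95% interval of -0.24 to 1.58 (adjusted p = 0.268 from edgeR). Cox7b2, Cox8b and Cox8c had at most 1 fragment in any library and were not tested. Thus 3 of the 5 restricted paralogs tested were called, against 1 of the 76 other subunits tested. The 5 had mean levels of 0.739 to 12.6 FPKM, below all of the other subunits tested except Atp5s, a coupling factor at 4.03 FPKM. The split by tissue restriction was made after the values were seen, and no test was made of it.

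Markers of skeletal muscle, adipocytes and pericytes were read in the same libraries, and their part in the results was not tested. Of 12 skeletal muscle markers 5 were tested and 2 rose, Acta1 (22.7 to 26.4 FPKM in Control and 137 to 171 FPKM in GOF libraries) and Chrna1 (0.149 to 0.241 and 0.757 to 0.955 FPKM). Pax7 was listed at 0 in every library and Myod1, Myf5 and Ckm did not exceed 0.0290 FPKM. The summed level of the list, most of it Acta1, was 24.7 to 30.1 FPKM in Control and 140 to 174 FPKM in GOF libraries. Of 10 adipocyte markers all 4 that were tested fell, Cebpa, Fabp4, Pparg and Lpl, and the sum over the list was 66.8 to 237 FPKM in Control and 8.04 to 20.4 FPKM in GOF libraries. Adipoq, Plin1, Ucp1 and Cidea did not exceed 0.0946 FPKM. Ndufa4l2 and Cox4i2 are also known as markers of pericytes. Of 7 pericyte and smooth muscle markers, all tested, Cnn1 rose and none fell, with sums of 2344 to 3571 FPKM in Control and 2931 to 4785 FPKM in GOF libraries. Most of that sum was Acta2 (1549 to 3349 FPKM) and Tagln (700 to 1268 FPKM), which cultured fibroblasts also make. The median log2 fold change over the 7 was 0.39. The animal block gave 3 higher and 0 lower, and DESeq2 gave 2 higher and 0 lower. Rgs5, 1 of the 7, had 2.41 to 3.22 FPKM in Control and 1.31 to 2.52 FPKM in GOF libraries. These ranges overlapped and the gene was not called (adjusted p = 0.173 from edgeR). Rgs5 was picked after its values were seen, and whether the share of pericytes differed was not tested.

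Each restricted paralog was next set against its widespread partner in the same library, as the log2 ratio of FPKM. Ndufa4l2 stood at 7.0% of Ndufa4 in Control and 0.750% in GOF libraries (geometric means), a difference in log2 ratio of -3.22. Cox6a2 stood at 1.01% of Cox6a1 in Control and 0.152% in GOF libraries, and the 3 Control ratios lay between -6.65 and -6.61. Cox4i2 stood at 0.194% of Cox4i1 in Control and 0.0578% in GOF libraries. Cox6b2 differed the other way, at 0.532% of Cox6b1 in Control and 1.16% in GOF libraries. For these 4 pairs the ratios of the groups did not overlap. The Cox7a1 to Cox7a2 ratio overlapped, at 2.40% and 3.08%. In no pair did the restricted paralog reach the level of its partner.

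The 3 subunit c genes stood in a different order in the groups. Atp5g1 stood at 71.4% of Atp5g2 in Control and 120% in GOF libraries, with log2 ratios of -0.56, -0.37 and -0.53 in Control replicates 0, 1 and 2 and 0.22, 0.26 and 0.30 in GOF replicates 0, 1 and 2. Atp5g2 was thus the higher gene of the pair in every Control library and the lower in every GOF library. Within the 2 animals that gave both cultures the log2 ratio was higher in GOF by 0.86 and 0.75. Atp5g3 stood at 106% of Atp5g2 in Control and 167% in GOF libraries, without overlap. For each of the 6 ratios that did not overlap, the exact two-sided permutation test gave p = 0.1, the smallest that 3 against 3 libraries allow, and 0.117 after adjustment over the 7 ratios that could be formed. Each of the 6 holds a gene whose own FPKM did not overlap, and both subunit c ratios share Atp5g2. They are therefore not results separate from those of the single genes, and the share over other pairs of genes was not measured. The Atp5g1 and Atp5g3 levels themselves had log2 fold changes of 0.05 (95% interval -0.47 to 0.57) and 0.10 (95% interval -0.17 to 0.36), neither of which passed the threshold.

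**Figure D3:**
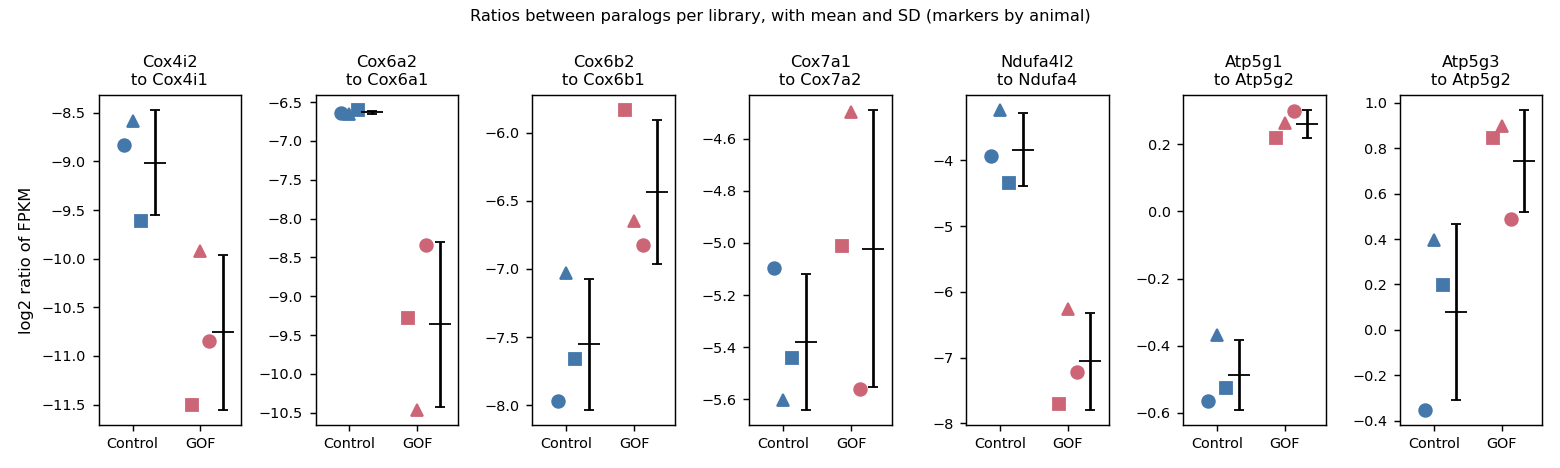
log2 ratio of FPKM between paralogs (y axis, a separate scale in each panel) in each Control and GOF library, with the mean and SD of 3 libraries and the marker shape giving the animal. The groups are apart in 6 of 7 panels, each of which holds a gene whose own FPKM does not overlap between groups. The Atp5g1 to Atp5g2 ratio lies below 0 in Control and above 0 in GOF libraries.

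Promoters are printed from RefSeq (GRCm38.p6) for some of the members above that have one there, each from 250 bases before to 50 bases after the annotated start, 5′ to 3′ on the gene's strand. Capitals mark matches on either strand to GCGCATGCG (NRF1), CCGGAAGT (GABPA and other ETS factors), AAGATGGCG (YY1) or CTTTGAT (TCF/LEF). They are shown for the pair Cox6b2 and Cox6b1, of which the first rose, for Ndufb3, and for the pair Atp5g2 and Atp5g1.
Cox6b2, chr7:4753045-4753344, minus strand: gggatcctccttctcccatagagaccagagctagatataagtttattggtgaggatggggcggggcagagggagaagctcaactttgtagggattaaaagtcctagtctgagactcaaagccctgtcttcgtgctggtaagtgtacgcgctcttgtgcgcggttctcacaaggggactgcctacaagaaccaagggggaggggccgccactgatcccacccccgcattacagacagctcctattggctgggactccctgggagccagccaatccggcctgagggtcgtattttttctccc
Cox6b1, chr7:30626065-30626364, minus strand: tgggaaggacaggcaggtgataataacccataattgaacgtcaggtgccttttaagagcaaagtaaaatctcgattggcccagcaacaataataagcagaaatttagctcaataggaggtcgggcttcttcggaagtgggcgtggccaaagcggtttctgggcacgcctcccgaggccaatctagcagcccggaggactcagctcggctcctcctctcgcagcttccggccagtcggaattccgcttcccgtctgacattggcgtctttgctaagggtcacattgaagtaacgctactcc
Ndufb3, chr1:58586147-58586446, plus strand: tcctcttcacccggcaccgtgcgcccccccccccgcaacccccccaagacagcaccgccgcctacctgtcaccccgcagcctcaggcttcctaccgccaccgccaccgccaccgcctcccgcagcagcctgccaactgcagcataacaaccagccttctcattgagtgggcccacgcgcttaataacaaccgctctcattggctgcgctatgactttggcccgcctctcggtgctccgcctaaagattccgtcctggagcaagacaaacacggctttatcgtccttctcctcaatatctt
Atp5g2, chr15:102670998-102671297, minus strand: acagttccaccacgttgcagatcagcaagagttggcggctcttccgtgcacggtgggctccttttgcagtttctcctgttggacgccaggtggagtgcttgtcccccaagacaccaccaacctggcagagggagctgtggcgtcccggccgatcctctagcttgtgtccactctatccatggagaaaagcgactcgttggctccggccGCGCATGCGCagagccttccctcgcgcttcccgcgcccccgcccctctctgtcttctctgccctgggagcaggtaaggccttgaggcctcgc
Atp5g1, chr11:96075582-96075881, minus strand: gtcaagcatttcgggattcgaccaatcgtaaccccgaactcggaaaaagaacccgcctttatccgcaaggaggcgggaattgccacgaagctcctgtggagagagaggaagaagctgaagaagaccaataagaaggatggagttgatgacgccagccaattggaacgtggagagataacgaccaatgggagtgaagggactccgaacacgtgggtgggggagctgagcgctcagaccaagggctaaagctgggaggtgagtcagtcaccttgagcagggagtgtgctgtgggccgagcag
Among these 5, only the Atp5g2 window held a match, an NRF1 palindrome that begins 42 bases before the start and is read on both strands in overlap. RefSeq promoters were matched for 66 of the 84 members. Of these, 8 held the NRF1 letters (12.1%, against 1.95% of 27025 genes), 7 the YY1 letters (10.6%, against 1.64%) and 5 the ETS letters (7.58%, against 4.31%). The TCF/LEF letters stood in the promoter of 1 member, Ndufa5, or 1.52%, against 4.29% of all genes. Ndufa5, a subunit of the peripheral arm, had a log2 fold change of -0.01 (95% interval -0.39 to 0.37). Ndufa4l2, Cox6a2, Cox4i2, Cox4i1 and 14 other members were among those not matched.

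Complex by complex, the widespread subunits showed small fitted differences. In complex I, 1 subunit was higher, 1 lower and 35 were not called, with a median log2 fold change of 0.06. Among the catalytic core subunits, Ndufs1, Ndufs3, Ndufs7, Ndufs8, Ndufv1 and Ndufv2 had log2 fold changes of -0.27 to 0.26. Ndufa4 itself was at 375, 257 and 273 FPKM in Control replicates 0, 1 and 2 and 358, 455 and 422 FPKM in GOF replicates 0, 1 and 2. The fitted difference on the log2 scale was 0.42 (95% interval 0.01 to 0.82, adjusted p = 0.136 from edgeR).

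None of the 4 subunits of complex II, which is also the succinate dehydrogenase of the citric acid cycle, was called by edgeR or by DESeq2, and 0 had an unadjusted p under 0.05. Its flavoprotein Sdha was at 35.3, 43.3 and 46.5 FPKM in Control replicates 0, 1 and 2 and 66.5, 58.6 and 42.4 FPKM in GOF replicates 0, 1 and 2. GOF replicate 2 lay among the Control libraries, and without it the log2 fold change went from 0.44 (adjusted p = 0.146 from edgeR) to 0.62 (adjusted p = 0.0237 from edgeR). None of the 8 subunits of complex III was called by edgeR or by DESeq2, 0 had an unadjusted p under 0.05, and their log2 fold changes were -0.26 to 0.25. Uqcrc1, a core protein, and Uqcrfs1, the Rieske iron-sulfur protein, had the highest, 0.25 and 0.20. Of 15 complex IV subunits tested, 13 were not called, and of 17 complex V subunits none was by unblocked edgeR or by DESeq2, with 1, Atp5g2, at an unadjusted p under 0.05. Atp5a1 and Atp5b, the α and β subunits of the catalytic head, had log2 fold changes of -0.01 (95% interval -0.40 to 0.37) and 0.24 (95% interval -0.18 to 0.67).

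The most abundant subunits were Atp5b, Cox4i1, Cox6b1, Cox6c and Cox8a, with mean levels of 571, 567, 501, 490.1 and 484 FPKM. Cox4i1, the widespread subunit IV, was at 686, 458 and 483 FPKM in Control replicates 0, 1 and 2 and at 559, 549 and 668 FPKM in GOF replicates 0, 1 and 2. The groups overlapped, as they did for the other 4. Summed over all 84 members, the level was 12820 ± 2908 FPKM in Control and 13690 ± 1236 FPKM in GOF libraries (SD, n = 3 each), a difference smaller than either SD.

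The libraries were ordered as follows. Among the 76 subunits tested that are not restricted paralogs, Control replicate 0 was the highest Control library for 75, and GOF replicate 2, from the same animal, was the highest GOF library for 58. GOF replicate 0 was the lowest GOF library for 59, and Control replicate 2, from the same animal as it, was the lowest Control library for 41, with Control replicate 1 the lowest for 34. The members took 1.16%, 0.859% and 0.823% of all fragments in Control replicates 0, 1 and 2 and 0.882%, 1.01% and 1.05% in GOF replicates 0, 1 and 2. GOF minus Control was negative for 60 of the 81 subunits in the animal of Control replicate 0 (median -0.15 on the log2 scale) and positive for 65 in the animal of Control replicate 2 (median 0.15). The medians over all genes in the same pairs were -0.02 and -0.0007. Of the 81 subunits, 46 differed in opposite directions in the 2 animals (56.8%, against 24.9% of all genes tested).

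The number of subunits called higher depended on single libraries. Without Control replicate 0 it was 9, where all genes gave 11.9% called higher, and the median over the subunits was 0.25. Ndufb2, Ndufb6, Ndufb8 and Ndufa4 of complex I and Cox6b1, Cox6c and Cox7a2 of complex IV then joined Ndufb3 and Cox6b2. Their log2 fold changes without that library were 0.43 to 0.79. None was called higher without Control replicate 2 or without GOF replicate 0, 1 was without Control replicate 1 or GOF replicate 1, and 2 were without GOF replicate 2.

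Control replicate 0 also stood apart in transcript length, a fact whose part in the subunits' values was not tested. The median exonic length was 1569 bases for the subunits and 4135 bases for all genes tested. In that library the median deviation from the mean of the 6 libraries was 0.31 on the log2 scale for the subunits, 0.43 for 283 other coding genes with under 1000 exonic bases, 0.18 for 3398 with 1000 to 3000 bases and -0.05 for 9749 with more. In the other 5 libraries the subunits' medians were -0.26 to 0.19 and those of the short genes -0.15 to 0.02. Rpph1 and Rmrp, short noncoding RNAs, took 13.8% of the FPKM in Control replicate 0 and 1.65% to 6.64% in the others.

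**Figure D4:**
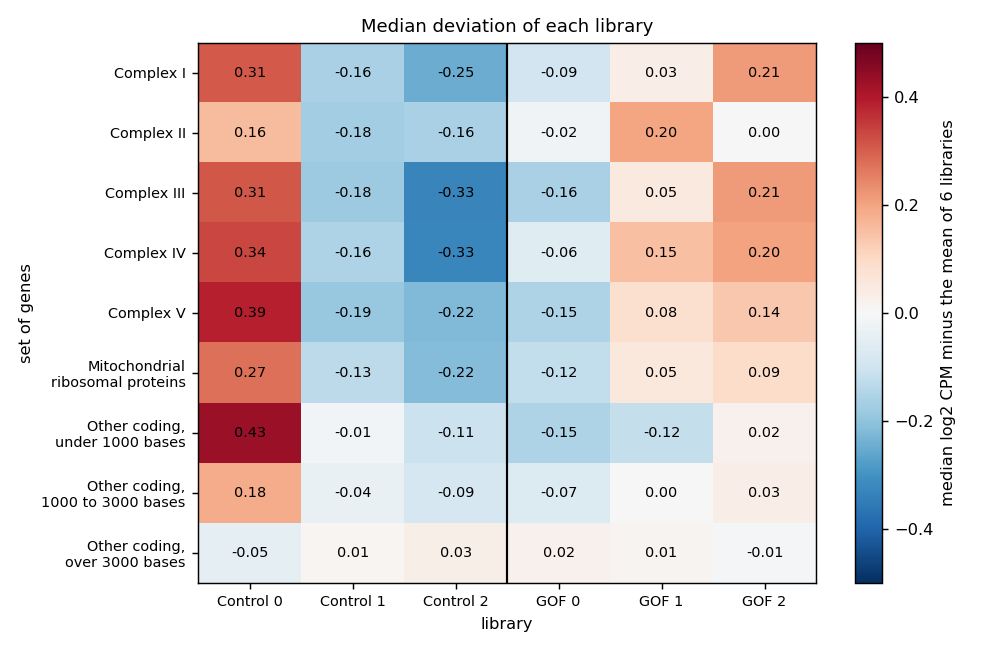
Median over each set of genes (rows) of the log2 normalized count minus its mean over 6 libraries, for each library (columns), with the subunits given by complex and without the restricted paralogs. Control replicate 0 is the highest Control library in every set drawn except the coding genes over 3000 bases, where it is at -0.05.

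The genes that build and feed the chain were described by lists, whose share of calls stands beside 21.2% of all genes. Of 16 complex I assembly factors tested, Acad9 rose, from 13.9 to 18.3 FPKM in Control to 28.8 to 41.4 FPKM in GOF libraries (log2 fold change 1.02, adjusted p = 0.0040 from edgeR), and none fell. Ttc19, 1 of 6 complex III factors, rose by 0.50 on the log2 scale (adjusted p = 0.0194 from edgeR). Of 20 complex IV factors Cox18, an insertase, rose by 0.64 and Cox19, a copper chaperone, by 0.47 on the log2 scale. Both the complex II factors (4 tested) and the complex V factors with the inhibitor (5 tested) had no call by edgeR or by DESeq2, each with 1 gene at an unadjusted p under 0.05. With the animal as a block 1 complex V gene was lower.

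Of 18 electron carriers and enzymes of ubiquinone synthesis, Coq7, the hydroxylase of ubiquinone synthesis, rose (log2 fold change 0.57, adjusted p = 0.0255 from edgeR). Cytochrome c itself, Cycs, was at 22.4 to 32.9 FPKM in Control and 34.5 to 46.4 FPKM in GOF libraries and missed the threshold (log2 fold change 0.63, adjusted p = 0.0522 from edgeR). Of 14 citric acid cycle genes 3 rose, Ogdh, Idh3a and Dlst, and Idh2, the NADP-dependent mitochondrial isocitrate dehydrogenase, fell. DESeq2 gave 5 higher and 1 lower. The sum over the 14 was 561 to 606 FPKM in Control and 683 to 690 FPKM in GOF libraries. Their median log2 fold change was 0.27, and 0.22 to 0.29 with a library left out, where 0 to 4 genes were called higher. Idh2 was at 39.4 to 48.3 FPKM in Control and 14.8 to 19.8 FPKM in GOF libraries (log2 fold change -1.43, adjusted p = 0.000695 from edgeR). With the animal as a block, 1 complex I factor, 1 complex IV factor, no complex III factor and no gene of the carrier list were higher, and the cycle gave 2 higher and 1 lower.

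Of 77 mitochondrial ribosomal proteins 1 was called by unblocked edgeR, Mrpl24, lower at -0.68 (adjusted p = 0.0220), and their median was 0.002. The animal block and DESeq2 each gave 2 lower. Of 22 regulators of mitochondrial biogenesis 1 was called by unblocked edgeR, Ppargc1b, lower, at 0.0238 to 0.176 FPKM. The animal block gave 1 higher and 1 lower, and DESeq2 gave 1 higher and 2 lower. Nrf1, Gabpa and Tfam had log2 fold changes of -0.24, 0.13 and -0.27 and did not pass. Of 11 genes of hypoxia and isoform switching, Egln3, a prolyl hydroxylase acting on HIF, rose (log2 fold change 1.66, adjusted p = 0.0028 from edgeR). Pdk1, the kinase that holds back pyruvate dehydrogenase, fell (log2 fold change -0.78, adjusted p = 0.0194 from edgeR). Vegfa, Slc2a1, Ldha and Bnip3, induced by hypoxia in many cells, had log2 fold changes of -0.20, -0.14, 0.08 and -0.34 and did not pass. Acad9, Idh2 and Egln3 passed with each library left out. The other genes called in the lists from the assembly factors to the hypoxia genes each missed the threshold without Control replicate 1, with adjusted p-values of 0.0538 to 0.202 from edgeR.

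The 13 protein-coding genes of the mitochondrial genome, which encode the subunits at the core of the chain, are not members. Of the 12 tested none was called by edgeR or by DESeq2, 1 had an unadjusted p under 0.05, and the median log2 fold change was 0.35. mt-Nd1 was at 799 to 963 FPKM in Control and 994 to 1356 FPKM in GOF libraries (log2 fold change 0.41, adjusted p = 0.182 from edgeR). These values are uncertain, since mt-Co1 is listed at 0 in every library and mt-Co2 and mt-Co3 at 1.78 to 3.17 FPKM, and near-identical copies of part of this genome lie on chromosome 1.

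Of the remaining cell type lists, 4 of 10 fibroblast genes were called, Vim higher and Dcn, Col1a2 and Col6a1 lower. Of 10 genes of dividing cells, Mki67, Top2a, Ccnb1, Ccna2, Cdk1 and Mcm5 fell, and the sum was 158 to 263 FPKM in Control and 104 to 115 FPKM in GOF libraries. Of the keratinocyte list 3 genes were tested and Dsp rose, of the endothelial list 5 with Kdr higher and Tek lower, of the macrophage list 7 with Csf1r higher, and of the Schwann cell and melanocyte list 5 with no call by edgeR or DESeq2 and 1 at an unadjusted p under 0.05. Of these, Vim, Col1a2, Col6a1, Tek, Ccnb1, Ccna2, Cdk1 and Mcm5 missed the threshold when at least 1 library was left out, GOF replicate 0 among them for Tek and the 4 genes of dividing cells, with a highest adjusted p of 0.145 from edgeR. Whether any of these bears on the subunits was not tested.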

How the data were processed

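The authors sequenced stranded, paired-end libraries of 6 cultures and aligned the reads to mm10 using TopHat. Estimated counts were deposited as unscaled fragments per gene and library from Cuffdiff, and 4.95% of them are not whole. The FPKM values were deposited as Cuffdiff scaled them by length and between libraries. Versions, and whether counting used the strand, are not given in the sources used here. A further 2 columns of per-library values and the separate lncRNA table were not used, and 32 genes with a failed estimate were left out.

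GENCODE M21 on GRCm38 covered 97.9% of the identifiers. Counts were rounded and fitted over all genes with edgeR 4.0.16 in R 4.3.3 (quasi-likelihood test after TMM scaling and filterByExpr, with a threshold of 0.05 on the Benjamini-Hochberg adjusted p). Standard errors were calculated back from the edgeR result, as the absolute log2 fold change divided by the square root of its F statistic. Intervals at 95% use these with a t quantile. Ratios were compared with an exact two-sided permutation test in SciPy 1.17.1. DESeq2 1.42.0, limma 3.58.1 on log2(FPKM + 1) and log2(FPKM + 0.1), other scalings, other filters, a block by animal or by label number, and the omission of each library were alternatives. The scripts were tested on simulated data. Motif searches and the sets by exonic length are descriptions.

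Same-animal pairs are given by the sample titles. Their deviations from the group means correlated at 0.40 and 0.44 across genes, and same-numbered libraries gave -0.39, 0.06 and -0.43. Deviations cancel within a group, so positive values for some pairs bring negative ones for others. The correlations therefore cannot show by themselves what the numbers pair. By the titles, same-numbered libraries come from different animals. Cultures of one animal are not independent, and p-values measure the spread between these cultures.

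A subunit, counted but not drawn, is not reported here. The members and lists were chosen with earlier results of these data known. Genes named were the members past the thresholds, up to 10 higher and 10 lower called by adjusted p, the 5 most abundant, the paralog pairs, up to 3 called genes of each other list by adjusted p, up to 3 mitochondrial genes, and Ctnnb1 and Axin2. Other genes, among them Ndufb6, Sdha, the core subunits and unaffected members of lists, were chosen after their values were seen.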

Additional observations from a re-analysis of the deposited data

How the results depend on the processing

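Over 18 alternatives the 2 subunits called higher became 1 with upper-quartile scaling, 0 with a replicate block by label number, 3 with the animal as a replicate block, whether fixed or as a correlation, and 0 to 9 with a library left out, the 9 being without Control replicate 0. The 2 called lower became 3 with DESeq2, 4 with either replicate block by animal and 1 to 3 with a library left out, the 1 being Ndufa4l2 without GOF replicate 0. Ndufa4l2 passed in all 18. The median over the subunits, 0.06 with all libraries, was -0.05 to 0.25 when a library was left out. It was 0.25 without Control replicate 0 and below 0 without Control replicate 1, Control replicate 2 or GOF replicate 2. The other alternatives gave 0.002 to 0.11. Over all genes, 3281 calls became 1695 with the block by label number, 5126 with the animal as a correlation and 1732 to 3726 with a library left out. The log2 ratio of Atp5g1 to Atp5g2 differed between groups by 0.75 on FPKM and 0.66 on rounded fragments, and the other ratios moved by less than their spread under each alternative. Of 19 named subunits under these settings, none that was called changed sign. The cause of these changes was not tested. Depth limits Cox4i2, Cox6a2, Cox6b2 and Cox7a1 the most, at 5 to 130 fragments per library, and Cox7b2, Cox8b and Cox8c, at 0 or 1 fragment, could not be compared. Groups of 3 libraries cannot reach p below 0.1 in a permutation test.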
